A study of Mus musculus with 48 samples.

Results

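The genes described here are 10 genes of lung surfactant and of the alveolar type 2 cell, taken by their Ensembl IDs from a table of 42548 genes. All 10 were found in the table and all 10 passed the filter on low counts in both compartments. They are listed by name for what they are known to do, and the rule that lists them uses no measured value. The list was drawn up with earlier results of these data known. There were 48 libraries from 24 mice, 1 epithelial and 1 whole lung library per mouse. In the RiboTag system a ribosomal protein bears an HA tag in chosen cells, so that RNA on tagged ribosomes can be pulled down through the tag. The labels give that pull-down and 3′-end sequencing for both kinds of library. They do not say which promoter drives the tag, nor how the whole lung libraries were prepared differently, so a difference between compartments may include a difference in preparation.

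All mice were given saline or bleomycin, a drug that injures the lung and is used to model fibrosis. There were 6 saline mice with a control treatment, 9 bleomycin mice with a control treatment, 5 bleomycin mice with KIRA8 and 4 bleomycin mice with 3G9. KIRA8 is a small-molecule inhibitor of the kinase of IRE1α, a sensor of stress in the endoplasmic reticulum. 3G9 is an antibody to integrin αvβ6, through which latent TGFβ is activated. The mice fell into 3 batches. S061 held 3 bleomycin control and 3 KIRA8 mice and no saline mouse. In S135 there were 3 saline, 2 bleomycin control and 2 KIRA8 mice. S151 held 3 saline, 4 bleomycin control and 4 3G9 mice. The control treatment is labelled Vehicle in S061 and S135 and Axum8 in S151. The labels give a mouse number and a sex for each animal but no age, dose or time after bleomycin. Each mouse counts as 1 replicate.

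Alveolar type 2 cells are the epithelial cells that make surfactant, the film of lipid and protein that keeps the air spaces open. Surfactant lipid is assembled and stored in lamellar bodies, organelles related to lysosomes, and the hydrophobic proteins SP-B and SP-C are cut from precursors on the way there. SP-A and SP-D are collectins, which bind microbes in the air space. These cells make large amounts of secreted protein, so they rely on the endoplasmic reticulum, and they also act as progenitors of the alveolar epithelium after injury.

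The members by role were the surfactant proteins Sftpc (ENSMUSG00000022097, SP-C), Sftpb (ENSMUSG00000056370, SP-B), Sftpa1 (ENSMUSG00000021789, SP-A) and Sftpd (ENSMUSG00000021795, SP-D). Napsa (ENSMUSG00000002204) encodes napsin A, a protease that takes part in processing the SP-B precursor. Abca3 (ENSMUSG00000024130) encodes the transporter that loads lipid into lamellar bodies, and Lamp3 (ENSMUSG00000041247) a membrane protein of that organelle. Lpcat1 (ENSMUSG00000021608) encodes an acyltransferase that makes saturated phosphatidylcholine, the main surfactant lipid. Slc34a2 (ENSMUSG00000029188) encodes a sodium-phosphate cotransporter of the apical membrane, and Muc1 (ENSMUSG00000042784) a transmembrane mucin found on many epithelia.

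In the RefSeq annotation of GRCm38.p6 all 10 are protein-coding genes, and 3 of them lie on chromosome 14. Sftpa1 spans 41131788 to 41136373 there and Sftpd 41172212 to 41185198, with 35838 bases and 2 annotated genes between them. Sftpc lies far from that pair, at 70520941 to 70524081. Sftpb is on chromosome 6 at 72304610 to 72314373 and Lamp3 on chromosome 16 at 19653381 to 19706365. Lpcat1 is on chromosome 13 at 73467231 to 73516420 and Slc34a2 on chromosome 5 at 53049353 to 53071664. Abca3 is on chromosome 17 at 24351921 to 24410204, Napsa on chromosome 7 at 44572445 to 44586846 and Muc1 on chromosome 3 at 89229056 to 89233381. The files hold 1 count per gene, so exons and transcript ends could not be told apart.

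Promoter sequence was held for 7 of the 10 members (all but Sftpc, Sftpd and Napsa). The 250 bases before the annotated start are shown for Sftpa1, the member that stood apart from the others after bleomycin, for Sftpb, which did not follow it, and for Lpcat1, because KIRA8 acts on the branch of the stress response that makes the factor XBP1. All are on the plus strand of GRCm38.p6, at chr14:41131538-41131787, chr6:72304360-72304609 and chr13:73466981-73467230. Capitals mark matches on either strand to CTCAAG, the core letters bound by the lung factor NKX2-1, to TGACGTGG, an element bound by XBP1, and to TATAAA, the TATA box.
Sftpa1: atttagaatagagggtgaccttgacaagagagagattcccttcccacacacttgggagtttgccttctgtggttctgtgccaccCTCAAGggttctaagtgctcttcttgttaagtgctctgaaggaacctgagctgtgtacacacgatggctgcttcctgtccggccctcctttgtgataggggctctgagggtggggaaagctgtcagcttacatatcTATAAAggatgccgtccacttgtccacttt
Sftpb: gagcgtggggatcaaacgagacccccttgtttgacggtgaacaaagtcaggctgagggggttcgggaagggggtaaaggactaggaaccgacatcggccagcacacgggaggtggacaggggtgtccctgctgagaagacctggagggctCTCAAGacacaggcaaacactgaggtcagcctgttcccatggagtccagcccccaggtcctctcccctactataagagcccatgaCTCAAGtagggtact
Lpcat1: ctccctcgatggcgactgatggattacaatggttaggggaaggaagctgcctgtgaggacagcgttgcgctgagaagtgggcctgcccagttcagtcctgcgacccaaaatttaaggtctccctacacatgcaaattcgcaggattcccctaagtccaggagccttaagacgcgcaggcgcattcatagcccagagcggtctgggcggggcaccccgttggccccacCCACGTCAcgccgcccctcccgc
CTCAAG was present in 2 of the 7 promoters, Sftpb and Sftpa1, and in 13.3% of all 32851 promoters of this length. TGACGTGG was present in 1 of the 7, Lpcat1, on the minus strand, and in 0.563% of all promoters. TATAAA was present in 2 of the 7, Sftpa1 and Muc1, and in 12.4% of all. None of the matches overlapped another. These are matches of letters and not measured binding.

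The counts were deep enough for every member in every library. Total counts ran from 7163613 to 51797377 per library, and the lowest count of a member was 59, for Abca3 in a whole lung library of S061. The 10 genes held between 0.186% and 14.1% of all counts of a library. Libraries of S061 stood apart, with 6.01% to 12.7% of their counts in 146 genes that were nearly absent from the other batches, where that share was at most 0.846%, a value found for bleomycin control mouse 149 of S135 in whole lung. Levels are given as TMM-scaled CPM (a count relative to library size after TMM correction for library composition), and 3′-end counts do not scale with gene length. Levels differed widely between batches. Abca3 in whole lung libraries lay between 3.55 and 7.01 CPM in S061, between 74.4 and 100.1 CPM in S135 and between 234 and 404 CPM in S151. Lpcat1 had another order, with 63.8 to 172 CPM in S061, 804 to 999 CPM in S135 and 279 to 468 CPM in S151. Arms were therefore compared within batch or with batch as a term. In bulk libraries, fewer alveolar type 2 cells and less RNA per cell cannot be told apart.

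Epithelial libraries of saline mice held more of these transcripts than the whole lung libraries of the same mice. With edgeR on TMM scaling and the mouse as a block, 9 of the 10 members were higher in epithelium at an adjusted p under 0.05. Of all 14885 genes, 57.5% were called in either direction. DESeq2 also called 9, against 62.6% of all genes, and voom 9, against 67.2%. The median log2 difference was 1.40 for the 10 members and -0.06 for all genes tested. The check of the label thus rests on these 10 genes. The table gives no symbols, and markers of other cell types were not analysed here.

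On a scaling fitted to the 12 saline libraries alone, whose CPM differ from those given for the arms further on, Sftpd was measured at 2720, 2884 and 3111 CPM in the epithelial libraries of the S135 saline mice and at 2846, 2961 and 3592 CPM in those of S151. The whole lung libraries of the same mice held 506, 525 and 579 CPM in S135 and 475, 511 and 598 CPM in S151. The compartments did not overlap in either batch, and the log2 difference of 2.5 ± 0.12 (SE, 6 mice, 95% interval 2.27 to 2.74, adjusted p 8.12e-08, edgeR) was the largest of the 10. Sftpc followed with a log2 difference of 2.25 ± 0.17 and Sftpa1 with 2.08 ± 0.13. The ratio of epithelial to whole lung level in a mouse ran from 3.70 to 8.28 for Sftpc and from 3.65 to 5.62 for Sftpa1. Sftpb, which shares its role with Sftpc, differed less, by 1.45 ± 0.17.

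Among the other members, Napsa had a log2 difference of 1.71 ± 0.16, above that of Sftpb, and the mucin Muc1 one of 1.36 ± 0.12. It was 1.09 ± 0.16 for Lamp3, 0.68 ± 0.15 for Lpcat1 and 0.57 ± 0.12 for Abca3. Slc34a2 had a log2 difference of 0.16 ± 0.12 (adjusted p 0.281, edgeR). Its epithelial levels in S135 were 543, 576 and 625 CPM against 540, 583 and 629 CPM in whole lung, so the compartments lay on top of each other. In S151 they were 924, 1093 and 1886 CPM against 811, 958 and 1237 CPM. The lower end of this order and the calls there depend on scaling. With library size in place of TMM the log2 differences of Abca3, Lpcat1 and Slc34a2 were -0.20, -0.08 and -0.60. The median of all genes moved to -0.84. On that scaling edgeR called Slc34a2 lower in epithelium (adjusted p 0.00185). Lamp3, Abca3 and Lpcat1 were no longer called (edgeR adjusted p 0.2, 0.278 and 0.747).

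**Figure D1:**
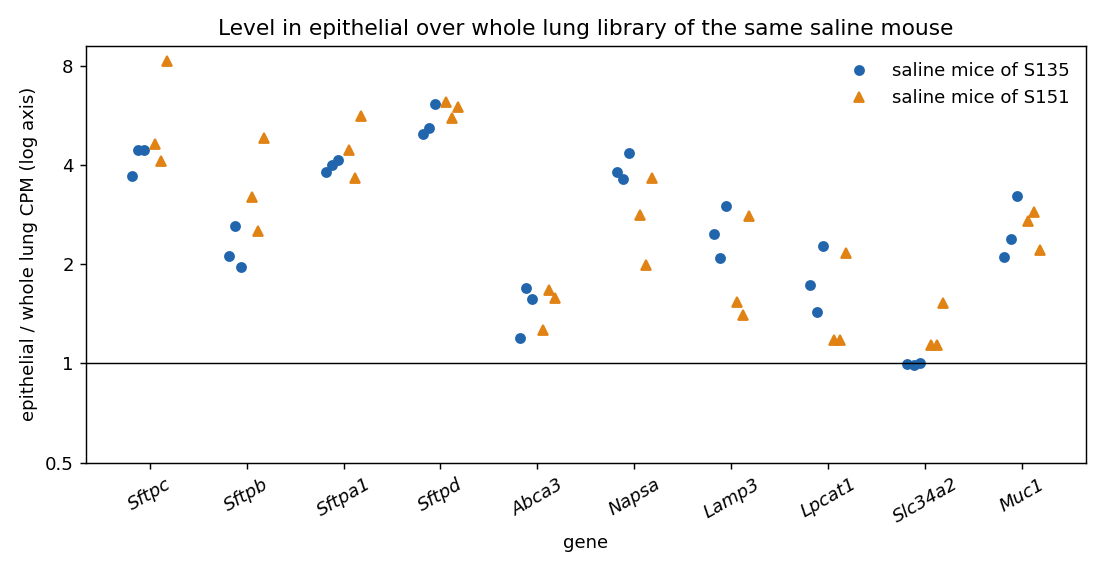
Ratio of the level in the epithelial to that in the whole lung library of the same saline mouse (y axis, log scale) for the 10 genes (x axis), with circles for the 3 mice of S135 and triangles for the 3 of S151. Sftpd lies between 4.98 and 6.23 in all 6 mice, and Slc34a2 between 0.988 and 1.52, at or near the line of equal level.

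Bleomycin left most of the 10 genes without a detected change. In the fits with batch as a term, edgeR called 0 of 10 members in epithelial libraries, where 8.72% of all genes were called, and 0 of 10 in whole lung libraries, where 10.1% were called. At an unadjusted p under 0.05 there was 1 member in each compartment, Sftpa1 in both, against 22.9% of all genes in epithelium and 25.8% in whole lung. DESeq2 called 0 in epithelium (12.3% of all genes) and 1 in whole lung (15.4%). Voom called 1 in epithelium (14.6%) and 1 in whole lung (15.5%). The median log2 fold change of the 10 was -0.14 in epithelium and -0.18 in whole lung, beside -0.00 and -0.01 for all genes tested. In epithelium the sign of that median turned with the scaling, to 0.20 with library size alone, where all genes moved to 0.37.

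Sftpa1 was the member with the lowest fold change in both compartments. In epithelial libraries of S151, saline mice held 6745, 6951 and 11220 CPM and bleomycin control mice 3732, 4279, 4503 and 6590 CPM. For whole lung libraries of S151, saline mice held 2441, 2827 and 3097 CPM and bleomycin control mice 1222, 1824, 1890 and 2240 CPM. Every bleomycin control library of S151 was below every saline library in both compartments. In S135 the picture was weaker. Whole lung libraries there held 3677, 3876 and 3980 CPM in saline and 2882 and 3676 CPM in bleomycin control mice, so the higher bleomycin mouse was level with the lowest saline mouse. Epithelial libraries of S135 overlapped, with 10100, 11261 and 11720 CPM in saline and 9434 and 11817 CPM in bleomycin control mice. Over both batches the log2 fold change was -0.55 ± 0.21 in epithelium (adjusted p 0.105, edgeR) and -0.60 ± 0.20 in whole lung (adjusted p 0.0527, edgeR). In whole lung DESeq2 and voom gave adjusted p-values of 0.0167 and 0.0129, and edgeR called it without bleomycin control mouse 149 or without mouse 206, with adjusted p-values down to 0.0212. Leaving out other mice gave values up to 0.11.

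Sftpd, the other collectin, lay on the opposite side. In the fits with batch as a term edgeR called Sftpd in neither compartment, nor did it reach an unadjusted p under 0.05. Whole lung libraries of S135 held it at 651, 668 and 741 CPM in saline and at 1084 and 1162 CPM in bleomycin control mice, without overlap. In epithelial libraries of S135 it was measured at 2543, 2664 and 2803 CPM in saline and 4668 and 4779 CPM in bleomycin control mice, again without overlap. Within S135 alone its log2 fold change was 0.88 in epithelium (adjusted p 0.00172, edgeR) and 0.75 in whole lung (adjusted p 0.0122). The share of all genes called in these S135 fits is not given. In S151 the whole lung libraries held 636, 683 and 814 CPM in saline and 756, 804, 866 and 878 CPM in bleomycin control mice, and the groups overlapped. Within S151 the log2 fold changes were 0.02 in epithelium (adjusted p 0.973, edgeR) and 0.21 in whole lung (adjusted p 0.532). The difference between the bleomycin responses of S151 and S135 was not called for any of the 10 members in either compartment (edgeR, adjusted p under 0.05). At that threshold 0% of all genes were called in epithelium and 0% in whole lung. At an unadjusted p under 0.05 there were 0 of 10 members too, and the share of all genes there is not given. DESeq2 called 0 members as well, against 0.434% and 0.527% of all genes. For Sftpd that difference was -0.53 ± 0.31 in epithelium and -0.14 ± 0.32 in whole lung.

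The other secreted proteins gave no call. Sftpc had log2 fold changes of -0.42 ± 0.27 in epithelium and -0.43 ± 0.23 in whole lung. Its whole lung levels in S151 were 20102, 21729 and 25513 CPM in saline and 14782, 18768, 19546 and 23187 CPM in bleomycin control mice, with overlap. Sftpb had 0.16 ± 0.24 and 0.07 ± 0.15. Among the genes of processing, storage and transport, log2 fold changes ran from -0.19 for Abca3 to 0.15 for Napsa in epithelium and from -0.36 for Slc34a2 to 0.08 for Napsa in whole lung. The 95% interval of Slc34a2 in whole lung was -0.75 to 0.03, so a loss of up to that size was not distinguishable from no change. That of Abca3 in epithelium was -0.47 to 0.10.

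Counts of members whose groups did not overlap varied with batch and direction. In epithelial libraries of S135, 4 of 10 members (Sftpb, Sftpd, Napsa and Muc1) were higher in every bleomycin control than in every saline mouse, against 13.3% of all genes, and 1 (Lamp3) was lower, against 14.7%. In S151 epithelium 0 members were higher, against 7.66%, and 1 (Sftpa1) was lower, against 5.73%. In whole lung libraries of S135, 2 (Sftpb and Sftpd) were higher, against 14.7%, and 4 (Sftpc, Sftpa1, Lpcat1 and Slc34a2) were lower, against 15.6%. In S151 whole lung 1 (Lamp3) was higher, against 11.0%, and 1 (Sftpa1) was lower, against 7.72%. The members in each direction differed between the batches apart from Sftpa1 in whole lung.

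Because the fold changes of Sftpa1 and Sftpd had opposite signs, their counts were set against each other within each library, a ratio that no scaling of the library can change. The pair was chosen after the values were seen, and the ratios are given as a description. In whole lung libraries of S135 the ratio of Sftpa1 to Sftpd counts was 4.96, 5.95 and 5.96 in saline and 2.48 and 3.39 in bleomycin control mice. For S151 whole lung it was 3.80, 3.84 and 4.14 in saline and 1.62, 2.18, 2.27 and 2.55 in bleomycin control mice. Saline and bleomycin control mice were thus apart in both batches. The epithelial libraries showed the same order, with 3.79 to 4.61 in saline against 1.97 and 2.53 in S135, and 2.71 to 3.56 against 1.28 to 2.15 in S151. Of the 45 possible pairs of members, this was the only pair that separated saline from bleomycin control mice in the same direction in both batches in epithelium. In whole lung 4 of 45 pairs did so, namely Sftpb with Sftpa1, Sftpa1 with Sftpd, Sftpd with Abca3 and Lamp3 with Slc34a2. Pairs of other genes were not examined, so these counts have no background to be set against.

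The treated mice lay between these groups in part. In whole lung libraries of S151 the 3G9 mice had ratios of 2.63, 2.66, 2.80 and 2.88, above every bleomycin control and below every saline mouse. In whole lung libraries of S135 the KIRA8 mice had 3.99 and 4.00, also above both bleomycin control mice and below all saline mice. In S061 the KIRA8 mice were spread from 1.61 to 4.33 around the bleomycin control mice, at 1.93 to 2.59. In epithelium the KIRA8 mice of S135, at 2.90 and 3.17, were again between the groups, those of S061, at 1.03 to 3.16, spread on both sides of the bleomycin control mice at 1.59 to 2.25, while the 3G9 mice, at 2.07 to 2.68, overlapped the bleomycin control mice.

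**Figure D2:**
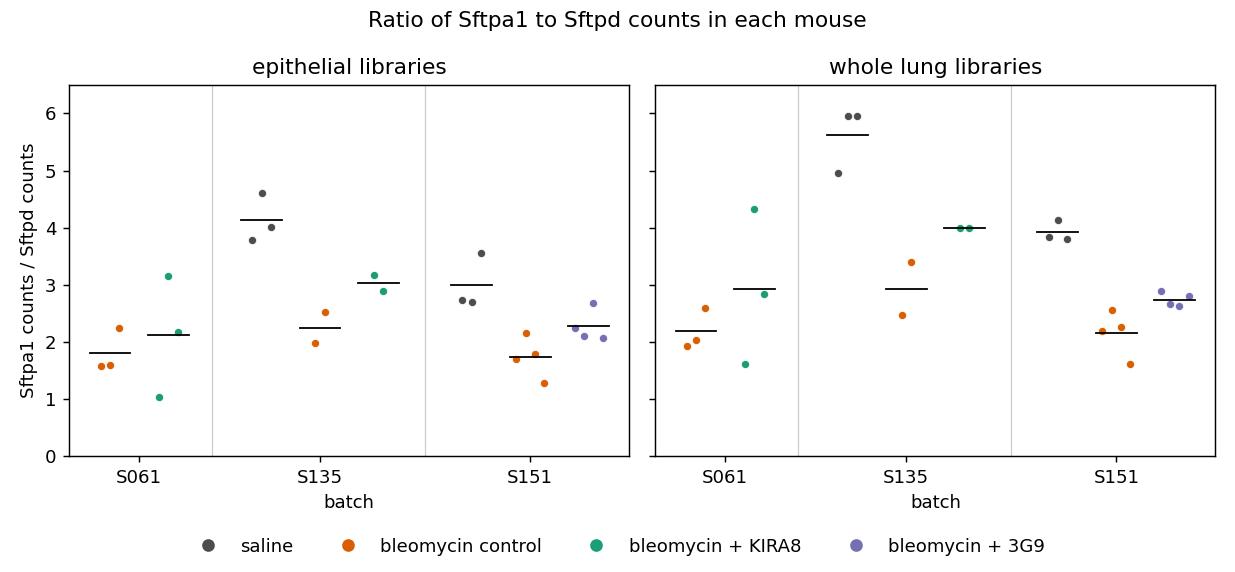
Ratio of Sftpa1 to Sftpd counts (y axis) in each epithelial (left) and whole lung (right) library, by batch (x axis) and arm (colour), with each point a mouse and each bar an arm mean. In whole lung the saline mice lie at 3.80 or above and the bleomycin control mice at 3.39 or below.

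KIRA8 was given to bleomycin mice in S061 and S135, and in whole lung libraries the 10 genes were higher with it in the first of these batches. Lamp3, the lamellar body protein, was measured at 17.6, 27.7 and 34.3 CPM in bleomycin control mice of S061 and at 82.8, 107 and 125 CPM in KIRA8 mice. Slc34a2 was measured at 60.1, 128 and 136 CPM and at 232, 260 and 334 CPM. The groups did not overlap for either gene, nor for any of the other 8. In all, 10 of 10 members were higher in every KIRA8 than in every bleomycin control mouse of S061 in whole lung, against 9.64% of all genes.

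The secreted proteins were among them. Sftpc was measured at 556, 923 and 946 CPM in the bleomycin control mice and at 1918, 2245 and 4228 CPM in the KIRA8 mice of S061. Sftpa1 was measured at 631, 906 and 1066 CPM and at 1617, 2375 and 3568 CPM, and Sftpd at 327, 411 and 443 CPM and at 823, 834 and 1007 CPM. KIRA8 mouse 32 was the highest for Sftpc and Sftpa1, and bleomycin control mouse 17 the lowest for all 3. Abca3, the lipid transporter, had the closest groups, with 3.55, 5.31 and 5.51 CPM against 5.90, 6.72 and 7.01 CPM. Within S061 alone, edgeR called 4 members, against 0.643% of all genes, namely Lamp3 (log2 fold change 2.01, adjusted p 0.014), Sftpd (1.21, adjusted p 0.014), Lpcat1 (1.09, adjusted p 0.0148) and Muc1 (0.99, adjusted p 0.0174).

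S135 did not show this. Lamp3 was measured there at 294 and 320 CPM in bleomycin control and at 244 and 269 CPM in KIRA8 mice, and Slc34a2 at 567 and 663 CPM and at 628 and 677 CPM. In S135 whole lung no member was higher without overlap, and 3 of 10 (Sftpd, Lamp3 and Lpcat1) were lower, against 17.8% of all genes. Within S135 edgeR called 0 of 10 members, against 0.00626% of all genes, and the log2 fold changes ran from -0.28 for Lamp3 to 0.25 for Sftpa1. The difference between the KIRA8 responses of the batches was tested as an interaction, added after the data were seen. In whole lung it was called for 1 of 10 members, Lamp3, with 2.38 ± 0.31 on the log2 scale (adjusted p 0.00187, edgeR), against 0.0258% of all genes. Lpcat1 had 1.15 ± 0.21 (adjusted p 0.0554). DESeq2 called 6 members, against 1.15% of all genes, namely Sftpc, Sftpd, Napsa, Lamp3, Lpcat1 and Slc34a2. S061 held 3 mice per arm and S135 held 2, and the batches differ in everything the labels tie to a batch, which cannot be told apart from the response.

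Over both batches edgeR called 1 of 10 members in whole lung with KIRA8, against 0.527% of all genes. That member was Sftpa1, with a log2 fold change of 1.04 ± 0.23 (adjusted p 0.0418, edgeR), and Sftpc had 1.08 ± 0.28 (adjusted p 0.0655). At an unadjusted p under 0.05 there were 8 members, against 15.4% of all genes. DESeq2 called 7 (3.62% of all genes) and voom 7 (5.82%). All 10 fold changes were positive, with a median of 0.61 on the log2 scale beside -0.01 for all genes. The call on Sftpa1 was lost without bleomycin control mouse 17, 31, 45, 148, 208R or 204 or without KIRA8 mouse 32 or 41, each of which left 0 members called, with adjusted p-values up to 0.118. Without bleomycin control mouse 149 or KIRA8 mouse 155 there were 3 calls, the others being Sftpc and Sftpd. The call also ended with library size in place of TMM (adjusted p 0.0587), with library size counted without the members (0.0609), with no filter (0.051) and with the 2 arms alone (0.116). Without S061 there were 0 calls, and the fold changes ran from -0.40 for Lamp3 to 0.41 for Sftpa1.

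The batch-limited share and the TMM factors overlapped between the arms of S061 in whole lung, and the share of counts in the 10 genes did not. The share of counts in the 146 batch-limited genes was 8.66% ± 1.19 (SD, n = 3) in bleomycin control and 8.0% ± 0.87 (SD, n = 3) in KIRA8 mice. TMM factors ran from 0.753 to 0.819 and from 0.749 to 0.851. The 10 genes together took 0.256% ± 0.061 (SD, n = 3) of all counts in bleomycin control and 0.681% ± 0.15 (SD, n = 3) in KIRA8 mice. In S135 that share was 1.57% ± 0.019 (SD, n = 2) and 1.64% ± 0.25 (SD, n = 2), and in the saline mice 1.59% ± 0.063 (SD, n = 3).

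**Figure D3:**
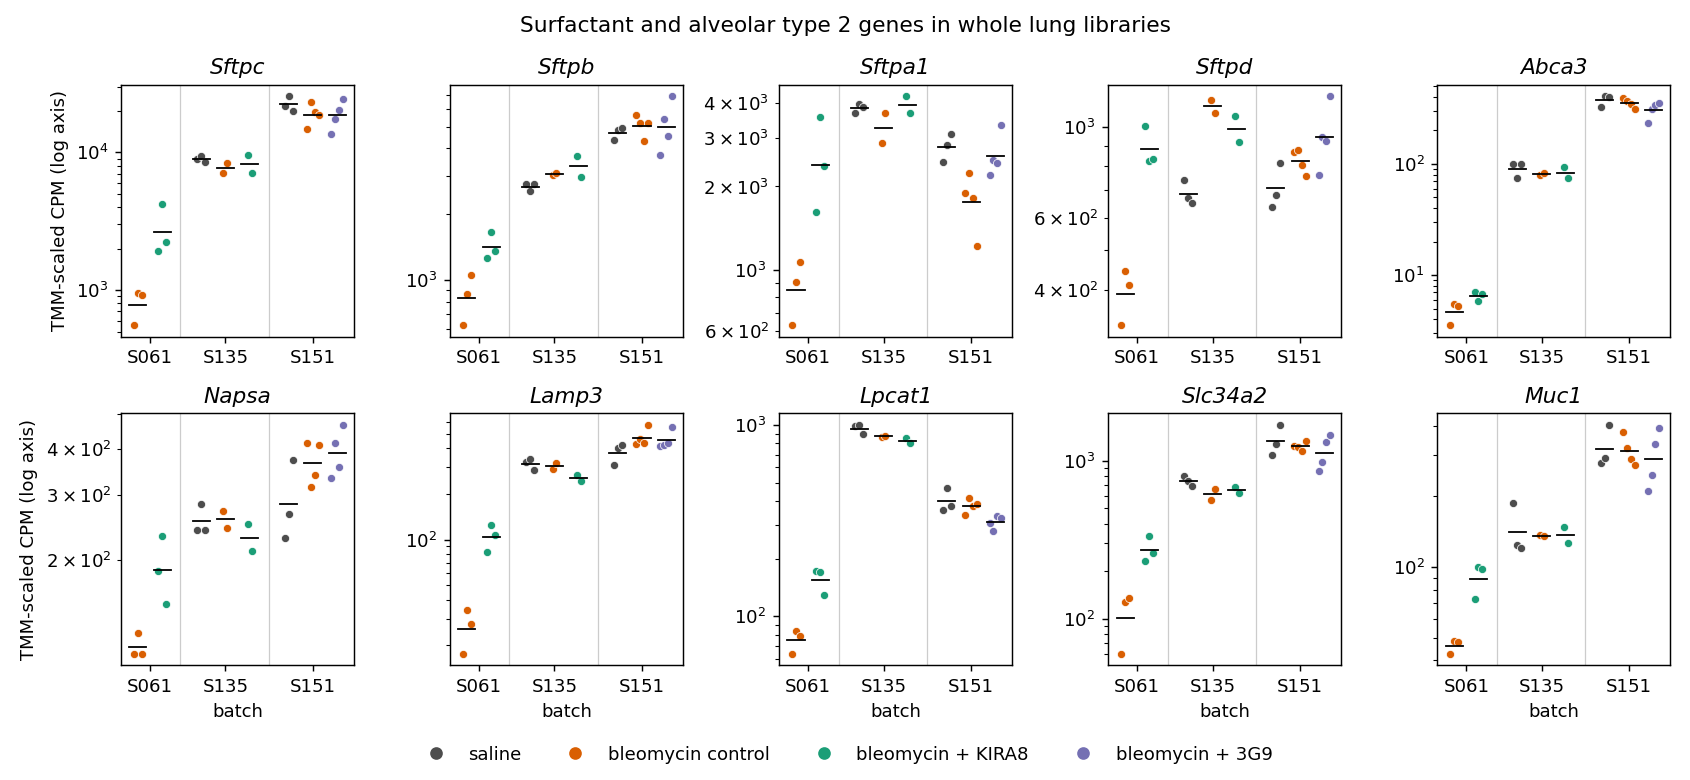
TMM-scaled CPM (y axis, log scale) of the 10 genes in each whole lung library, by batch (x axis) and arm (colour), with each point a mouse and each bar the geometric mean. In S061 all KIRA8 points lie above all bleomycin control points in all 10 panels, and in S135 this holds in none.

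Epithelial libraries gave another picture with KIRA8. EdgeR called 0 of 10 members over both batches, where 0.260% of all genes were called, with 1 member (Sftpa1) at an unadjusted p under 0.05 (11.5% of all genes). DESeq2 called 0 (1.41%) and voom 2 (13.1%), Sftpc and Sftpa1. In S061 epithelium 2 of 10 members (Sftpd and Lamp3) were higher without overlap, against 17.9% of all genes. Lamp3 was measured there at 50.6, 78.3 and 89.4 CPM in bleomycin control and at 96.4, 119 and 221 CPM in KIRA8 mice. In the same libraries the batch-limited share was 6.01% to 8.59% in bleomycin control and 9.25% to 12.7% in KIRA8 mice, and TMM factors were 1.05 to 1.11 and 0.831 to 0.973, without overlap. With that share as a term in the fit over all batches, edgeR again called 0 members, and Sftpb went from -0.35 to 0.11 and Slc34a2 from -0.29 to 0.02 on the log2 scale. Sftpb was measured at 2301, 2334 and 4196 CPM and at 990, 2472 and 3619 CPM, so 1 KIRA8 mouse was below the bleomycin control range and the other two were inside it. In S135 epithelium 7 of 10 members were lower without overlap, against 17.7% of all genes, all but Sftpc, Sftpa1 and Abca3. Muc1 was measured there at 290 and 318 CPM in bleomycin control and at 206 and 210 CPM in KIRA8 mice, beside 219, 273 and 286 CPM in saline mice. Napsa was measured at 820 and 904 CPM and at 601 and 648 CPM, beside 662, 736 and 757 CPM in saline mice. Both genes were thus below the saline range with KIRA8 in that batch, and the share of all genes that were so is not given. Against saline within S135 epithelium, edgeR called neither Napsa (log2 fold change -0.15, adjusted p 0.798) nor Muc1 (-0.26, adjusted p 0.57). Sftpd alone had a positive value in that fit, 0.43 (adjusted p 0.203, edgeR). Against bleomycin control within S135 epithelium, edgeR called 0 members with KIRA8, against 0% of all genes. The smallest adjusted p was 0.447, for Sftpb.

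The difference of the KIRA8 response between S061 and S135 was called for 0 of 10 members in epithelium (edgeR, adjusted p under 0.05). At that threshold 0.0231% of all genes were called. At an unadjusted p under 0.05 there were 4 members, and the share of all genes there is not given. DESeq2 called 1 (0.925% of all genes), Lamp3, which had 1.65 ± 0.45 on the log2 scale with an adjusted p of 0.168 in edgeR.

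**Figure D4:**
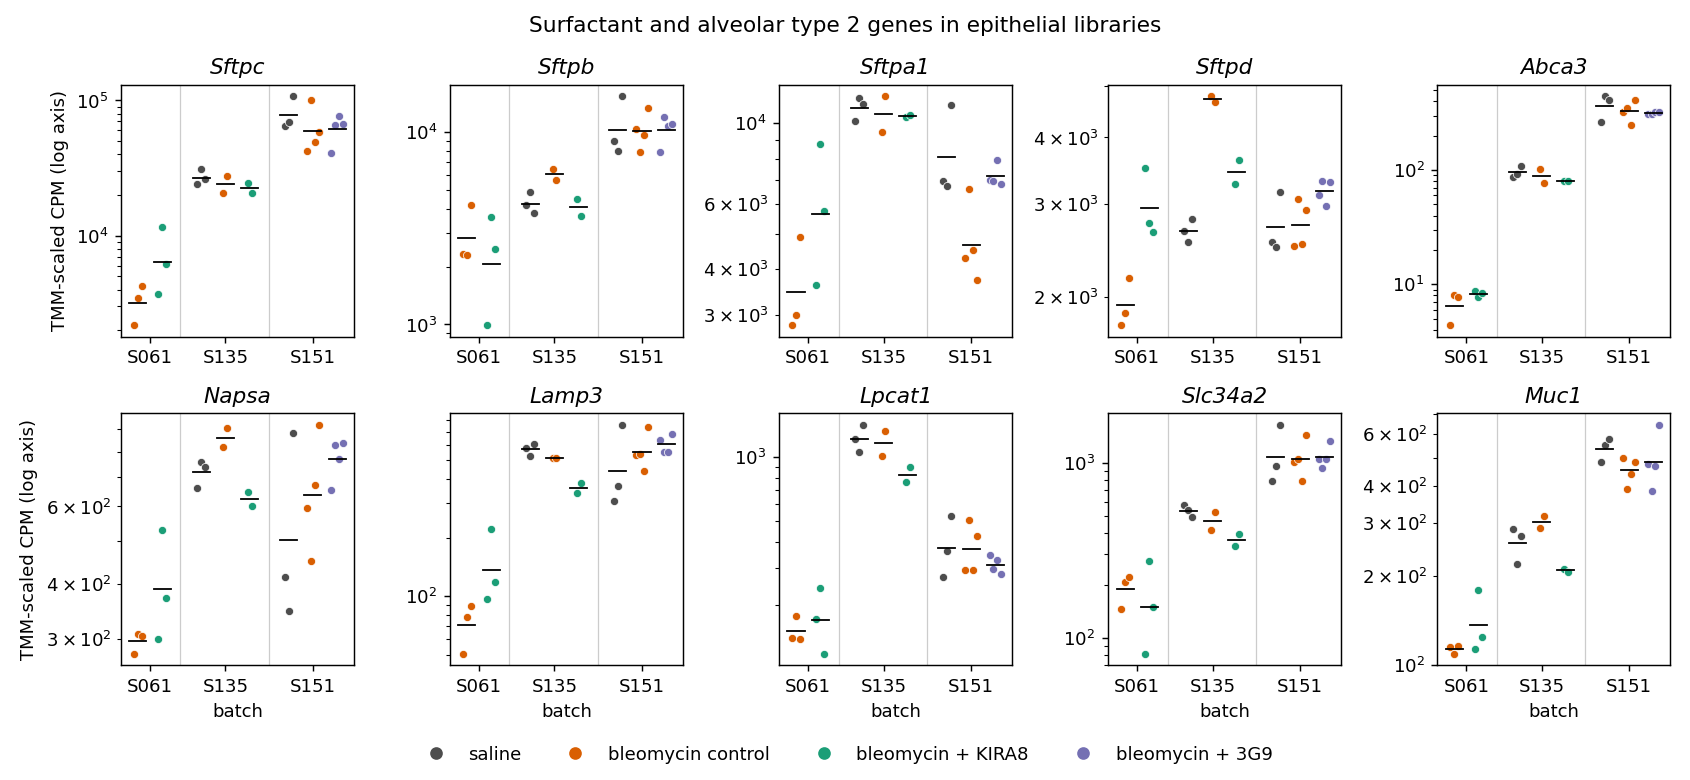
TMM-scaled CPM (y axis, log scale) of the 10 genes in each epithelial library, by batch (x axis) and arm (colour), with each point a mouse and each bar the geometric mean. In S135 both KIRA8 points lie below both bleomycin control points for 7 genes, and in S151 all 4 3G9 points lie above all bleomycin control points for Sftpa1.

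The KIRA8 response of the compartments was compared within the mouse, a test added after the data were seen. The epithelial response was below the whole lung response for all 10 members, from -0.20 for Abca3 to -1.28 for Slc34a2, with a median of -0.66 beside -0.02 for all genes. None was called by edgeR, with adjusted p-values from 0.127 to 0.622, where 0.00586% of all genes were called. At an unadjusted p under 0.05 there were 9 members, against 13.7% of all genes. DESeq2 called 5 (1.20% of all genes) and voom 6 (1.65%). The ratio of epithelial to whole lung level in a mouse was also lower with KIRA8 in S061. For Slc34a2 it ran from 2.63 to 4.04 in bleomycin control mice of S061 and from 0.552 to 1.3 in KIRA8 mice, and in S135 it ran from 1.12 to 1.22 in bleomycin control, from 0.777 to 0.98 in KIRA8 and from 1.08 to 1.13 in saline mice. For Lamp3 it ran from 3.70 to 5.17 in bleomycin control mice of S061 and from 1.77 to 2.79 in KIRA8 mice. In bleomycin control mice of S061 the ratio was above that of KIRA8 mice without overlap for every member but Abca3. The share of all genes with such a separation is not given. These ratios depend on scaling, and TMM factors of the S061 epithelial libraries did not overlap between these arms (1.05 to 1.11 and 0.831 to 0.973). The bleomycin response, by contrast, was not found to differ between compartments for any member. EdgeR called 0 of 10, where 0.162% of all genes were called, with 0 at an unadjusted p under 0.05 (9.06% of all genes). DESeq2 called 0 (1.03%) and voom 0 (0.757%), and the differences ran from -0.09 to 0.07 on the log2 scale. With library size in place of TMM they were all positive, with a median of 0.23 beside 0.25 for all genes.

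3G9 was given only in S151. Sftpa1 was measured in epithelium at 6819, 6947, 7008 and 7950 CPM with 3G9, all above the bleomycin control mice at 3732 to 6590 CPM. It was the only 1 of 10 members to be higher without overlap there, against 0.781% of all genes. The saline mice of that batch, at 6745, 6951 and 11220 CPM, overlapped the 3G9 mice. In whole lung Sftpa1 was measured at 2198, 2426, 2502 and 3323 CPM with 3G9, and the lowest of these was inside the bleomycin control range of 1222 to 2240 CPM. The log2 fold changes of 0.48 ± 0.26 in epithelium and 0.53 ± 0.24 in whole lung had adjusted p-values of 1 and 0.663 in edgeR. The unadjusted values were 0.0745 and 0.0374.

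No member was called with 3G9 against bleomycin control. EdgeR called 0 of 10 in epithelium, where 0% of all genes were called (0 members at an unadjusted p under 0.05, against 3.27%). DESeq2 called 0 there (0.208%) and voom 0 (0.0463%). EdgeR called 0 of 10 in whole lung, where 0.196% of all genes were called (1 member at an unadjusted p under 0.05, against 6.94%). DESeq2 called 0 there (1.19%) and voom 0 (1.80%). Lpcat1 was the 1 member lower without overlap in whole lung, against 1.67% of all genes, at 279, 307, 326 and 336 CPM with 3G9 and 337, 376, 386 and 415 CPM in bleomycin control mice. The groups were nearly touching, and the log2 fold change of -0.21 ± 0.17 had an adjusted p of 0.965. The other fold changes with 3G9 ran from -0.23 for Lpcat1 to 0.28 for Napsa in epithelium. The 95% interval for Sftpc was -0.61 to 0.67 in epithelium and -0.48 to 0.63 in whole lung.

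Against saline, neither treated arm had a called member. With KIRA8, edgeR called 0 of 10 in epithelium (1.06% of all genes) and 0 of 10 in whole lung (0.258%). Unadjusted p-values under 0.05 were found for 1 and 3 members, against 14.3% and 10.5% of all genes. DESeq2 called 0 (3.23%) and 1 (1.85%), and voom 0 (3.67%) and 1 (1.35%). The whole lung member was Sftpd, at 0.94 ± 0.21 on the log2 scale (adjusted p 0.0574, edgeR), and the arms share no batch but S135, where Sftpd was measured at 918 and 1060 CPM with KIRA8 and 651 to 741 CPM in saline mice. EdgeR called Sftpd there without KIRA8 mouse 154, KIRA8 mouse 155 or saline mouse 230, with an adjusted p down to 0.0222. Its log2 fold change was 0.40 without S061 (adjusted p 0.615), 0.55 within S135 (0.256) and 0.53 with the 2 arms alone (0.47). With 3G9, edgeR called 0 of 10 in epithelium (4.24% of all genes) and 0 of 10 in whole lung (10.4%). Unadjusted p-values under 0.05 were found for 0 and 3 members, against 17.4% and 26.1% of all genes. DESeq2 called 0 (7.10%) and 1 (16.0%), and voom 0 (8.70%) and 1 (23.2%). The member called by both was Lpcat1 in whole lung, at -0.46 ± 0.18 (adjusted p 0.101 in edgeR, 0.0482 in DESeq2 and 0.0109 in voom). These comparisons share their mice with those above and are not separate evidence.

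**Figure D5:**
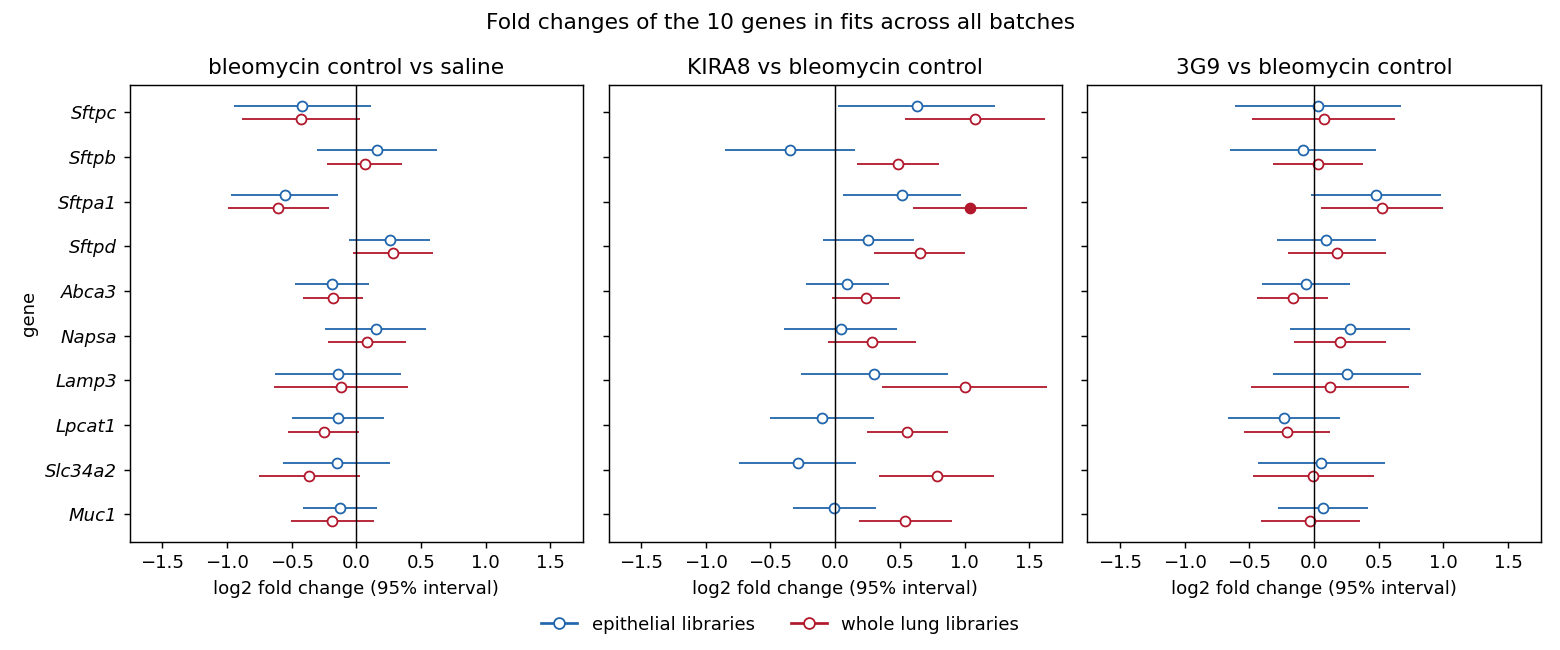
Log2 fold change (x axis) of each gene (y axis) with its 95% interval in epithelial (blue) and whole lung (red) libraries, for bleomycin control against saline, KIRA8 against bleomycin control and 3G9 against bleomycin control, from the edgeR fits with batch as a term. The filled point, Sftpa1 with KIRA8 in whole lung at 1.04, is the only one with an adjusted p under 0.05.

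Mice that were high for a member in one compartment tended to be high in the other. Deviations from the arm and batch mean of log2 CPM were compared over the 24 mice, with a permutation test within arm and batch and Benjamini-Hochberg adjustment over the 10 members. Slc34a2 had a Pearson r of 0.69 (permutation p 4e-05, adjusted 0.0004) and a Spearman rho of 0.81 (permutation p 7e-05). Sftpc had an r of 0.80 (permutation p 0.00143, adjusted 0.00715) and a rho of 0.72 (permutation p 0.00291). Sftpa1 had an r of 0.79 (permutation p 0.00464, adjusted 0.0127) and a rho of 0.64 (permutation p 0.0106). In all, 6 of the 10 members passed for r, the others being Lamp3 (0.70), Napsa (0.71) and Sftpb (0.52). Without the 2 mice farthest from the median epithelial deviation, r was 0.72 for Slc34a2, 0.72 for Sftpc and 0.66 for Sftpa1. For Abca3 r was 0.49 with those mice and 0.22 without them. Within batches r was positive for 10 of 10 members in S061 (6 mice, median 0.73), for 7 of 10 in S135 (7 mice, median 0.32) and for 10 of 10 in S151 (11 mice, median 0.58). In S135 r was -0.86 for Lamp3, -0.69 for Lpcat1 and -0.53 for Sftpd. Without S061 only Slc34a2 passed. Other genes were not tested in this way, so these counts of members have no background to be set against. The libraries of a mouse share the animal, and cell content of the lung sample was not measured.

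Within a compartment the members also varied together from mouse to mouse, after arm and batch means were removed. Over the 45 pairs of members, r across the 24 epithelial libraries had a median of 0.44 and ran from -0.12 for Sftpd and Muc1 to 0.92 for Lamp3 and Slc34a2. In whole lung the median was 0.51, and the highest value was again Lamp3 and Slc34a2, at 0.85. These values are descriptions, since the members of a library share its depth and scaling. Pairs of other genes were not correlated in this way, so the medians have no background to be set against. Among 10696 other genes with at least 5 CPM in epithelium, those whose deviations were most like the mean of the 10 were ENSMUSG00000032473 (r = 0.90 over 24 libraries) and ENSMUSG00000035805 (r = 0.90). Neither was called with bleomycin or KIRA8 in epithelium, with edgeR adjusted p-values of 0.461 or more.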

How the data were processed

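The deposited file holds unnormalized counts for each Ensembl gene in each of the 48 libraries. STAR 2.5.2b and GRCm38 are named, per the submitters' processing notes. The counting program and annotation are not given here. Columns were matched to samples by mouse number and by a final letter, E being taken as epithelial and I as whole lung. The label of 1 column carries an unexplained suffix.

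Counts were analysed in R 4.3.3 with the quasi-likelihood test of edgeR 4.0.16 (TMM scaling, filterByExpr on arm, robust dispersions, Benjamini-Hochberg over all genes, adjusted p under 0.05). The 24 libraries of a compartment entered 1 model with arm and batch terms, testing 17291 genes in epithelium and 19345 in whole lung. Compartments were compared with a block for mouse, the pairing coming from mouse numbers in the labels. SEs are the log2 fold change over the root of F. Alternatives were DESeq2 1.42.0, voom in limma 3.58.1, other scalings, no filter, other sample choices, terms for sex and batch-limited RNA, and each mouse left out. The fits were tested on simulated counts. Permutations (100000) ran in Python 3.11.15. The rule for named genes took all 10 members and the 2 genes most like them in epithelium.

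The members and lists were chosen with earlier results of these data known. No table paired the 42548 IDs with symbols (0 matched), so lists of other cell type and pathway genes were not applied. The p-values measure the spread between mice.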

Additional observations from a re-analysis of the deposited data

Results flagged for a closer look

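Sftpa1 in the epithelial library of 3G9 mouse 226R of S151, at 7950 CPM, lay far from the other 3 mice of its group, whose lowest value was 6819 CPM. Lamp3 in the whole lung library of 3G9 mouse 228, at 557 CPM, lay far from the rest of its group, which began at 415 CPM. Both met Dixon's criterion for 4 samples. With 40 groups of 4 tested, 2 such values are what chance gives at about 1 in 20.

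The whole lung response of Lamp3 to KIRA8 differed between batches by 2.38 on the log2 scale (S061 minus S135, edgeR adjusted p 0.00187). In S061 all 3 KIRA8 mice were above all 3 bleomycin control mice, a separation found for 9.64% of all genes. In S135 the 2 KIRA8 mice were below the 2 bleomycin control mice, found for 17.8% of all genes.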

How the results depend on the processing

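Over 2940 member values under alternatives, 2845 kept their side of the threshold, 71 were called only under the alternative and 18 only in the reported fit. In a further 6 the sign changed with a call on one side, and 248 uncalled values changed sign. Those 6 were the saline compartment differences of Abca3, Lpcat1 and Slc34a2. They were -0.198, -0.0803 and -0.603 with library size in place of TMM. With library size counted without the members they were -0.13, -0.0149 and -0.54. Slc34a2 was called lower in epithelium on both scalings (edgeR adjusted p 0.00185 and 0.00462). The saline call of Lamp3 ended on both (edgeR adjusted p 0.2 and 0.126).

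The shares of all genes called are given above for DESeq2, voom and KIRA8 against bleomycin control within a batch in whole lung. For the other settings they are not given, so those counts cannot be set against a background. Bleomycin against saline in epithelium had 0 calls, and 1 each with voom, with library size, with library size without the members and within S135. In whole lung it had 0, and 1 each with DESeq2, voom, the 2 arms alone, no S061, the batch-limited share as a term, sex as a term and within S135; leaving out single mice gave 0 to 1. KIRA8 against bleomycin control had 2 calls with voom in epithelium. In whole lung it had 7 with DESeq2 and 7 with voom, 4 within S061, and 0 with either library size, no filter, the 2 arms alone, no S061 or S135 alone; leaving out single mice gave 0 to 3. KIRA8 against saline in whole lung had 1 call with DESeq2, voom, either library size or no filter, and 0 to 1 with single mice left out. 3G9 against saline had 1 call in epithelium with either library size, and 1 in whole lung with DESeq2, voom or no S061. The added KIRA8 batch difference had 1 call with DESeq2 in epithelium, and 6 with DESeq2 and 2 with library size in whole lung. The added KIRA8 compartment difference had 5 with DESeq2, 6 with voom, 4 with no filter and 1 within S061. Tracking between compartments fell from 6 members to 1 without S061, and fewer mice entered there. The cause was not tested for tracking or for any of the other differences between settings.

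Without the mouse as a block, the paired comparisons had 9 calls for saline compartments, 0 for the bleomycin difference and 0 for the KIRA8 difference between compartments. Arms within a batch held 2 to 4 mice, which limits what was detectable.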
